A study of Mus musculus with 6 samples.

Results

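The enzymes of the tricarboxylic acid (TCA) cycle and of mitochondrial fatty acid oxidation were followed in mouse bone marrow myeloid cells sorted by a reporter for Hdc, the gene of the histamine-making enzyme histidine decarboxylase. The 40 genes, 22 of the cycle and its pyruvate entry and 18 of fatty acid oxidation, were taken by name from the platform annotation, which gives 1 symbol to probe sets of 18193 genes in all. A gene was read through its brightest probe set, by the mean of the 6 arrays. Marrow was taken from femurs and tibias of HdcGFP mice, which were female and of C57BL/6 background. Cells positive for CD11b and Gr1 with positive or high reporter signal form the group GFP_plus (3 arrays), and those with negative or low signal form GFP_min (3 arrays). All 6 samples thus carry the reporter and none had a treatment. The description of GFP_min replicate b reads Gr1-negative, while its sorted-cell label reads Gr1-positive like the others. Whether each array stands for a different mouse is not in the labels, and p-values therefore rest on a spread between samples that may be technical only.

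The TCA cycle oxidises acetyl-CoA to carbon dioxide and passes the electrons, as NADH and as reduced flavin, to the respiratory chain. Pyruvate enters through the pyruvate dehydrogenase complex. Fatty acids cross the inner mitochondrial membrane as carnitine esters and are shortened in repeated rounds of dehydrogenation, hydration, a further dehydrogenation and thiolysis, which yield acetyl-CoA for the cycle. Neutrophils are known for few mitochondria and a reliance on glycolysis, and monocytes and macrophages for more mitochondrial respiration.

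Values are the authors' deposited log2 expression values, and a difference is GFP_plus minus GFP_min on that scale. The array medians lay between 2.82 and 2.88. Correlations over tested probe sets were 0.995 to 0.997 inside a group and 0.961 to 0.967 across the groups. Hdc, the basis of the sort, was 11.95 to 12.06 on the GFP_plus arrays and 11.16 to 11.22 on the GFP_min arrays. The 3' to 5' signal gap of Gapdh, a sign of RNA quality, averaged 0.64 in GFP_plus and 0.31 in GFP_min (difference 0.32, two-sided exact permutation p = 0.1, the smallest that 3 against 3 can give), and that of beta-actin 0.87 and 0.81 (p = 0.2). The labelled myeloid identity was checked against markers. All 10 neutrophil markers lay far above the array medians in both groups, with a summed linear level of 161483 to 173031 in GFP_plus and 154250 to 158891 in GFP_min, and 5 were called higher and none lower. All 10 monocyte markers were lower in GFP_plus, with a summed level of 8576 to 9022 against 47102 to 47901 in GFP_min. All 6 basophil or mast cell markers were higher in GFP_plus (379 to 450, against 82.7 to 97.5 in GFP_min, where Cpa3 and Fcer1a lay below the array medians). Of 6 eosinophil markers, 2 were tested and both were higher (422 to 523 in GFP_plus against 164 to 187 in GFP_min); Prg3, Ccr3 and Il5ra lay below the array medians in both groups, and Epx did in GFP_min. Of 5 dendritic markers 4 were tested and 3 were lower (29.8 to 31.1 in GFP_plus against 248 to 359 in GFP_min), and in GFP_plus Cd209a, Siglech, Zbtb46 and Irf4 lay below the array medians. Of 3 B cell markers tested 1, Cd79b, was lower, with a summed level of the list of 46.6 to 61.9 in GFP_plus and 66.9 to 77.8 in GFP_min. Of 4 T or NK cell markers 1, Klrd1, was tested and was lower, with a summed level of the list of 23.8 to 25.8 in GFP_plus and 31.3 to 36.1 in GFP_min, and Cd3e, Cd3g and Ncr1 lay below the array medians in both groups. Of the erythroid markers Car1 alone was tested and was higher, and it lay below the array medians in GFP_min. The summed level of the list was 17.2 to 19.0 in GFP_plus and 15.2 to 16.8 in GFP_min. Klf1 and Hba-a1 lay below the array medians in both groups. Cpa3, Fcer1a, Cd209a, Irf4 and Car1 passed the level filter through 1 group alone, so their calls give their lists no support. These marker levels moved with the groups compared below, and their part in the enzymes' differences was not tested. In bulk samples, fewer cells of a type and less RNA per cell cannot be told apart.

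On the deposited scale, GFP_plus cells had lower transcripts of most TCA cycle enzymes and of several enzymes of later fatty acid oxidation steps. With arrays centred on ribosomal protein genes 12 members of each pathway were called higher, where 79.9% of all genes were. The largest falls were Hadh, the short-chain 3-hydroxyacyl-CoA dehydrogenase of fatty acid oxidation (6.64-fold lower), Echs1, its enoyl-CoA hydratase (3.88-fold), Fh1, fumarase (3.85-fold), and Idh2, the mitochondrial NADP-dependent isocitrate dehydrogenase (3.04-fold). Of 21 TCA cycle members tested, 16 were lower and 2 higher in GFP_plus by limma at an adjusted p under 0.05. Of 18 fatty acid oxidation members, 8 were lower and 1 higher. Among all 10807 genes tested, 27.6% were lower and 21.0% higher, so the TCA members were called lower at 76.2% and the fatty acid oxidation members at 44.4% against that background. In either direction 27 of the 39 tested members were called, against 48.7% of all genes. The arrays of 25 members did not overlap with GFP_plus below and those of 4 with GFP_plus above, against 32.1% and 27.2% of all genes. By at least 1 log2, 4 TCA and 5 fatty acid oxidation members fell and none rose, where 8.74% of all genes fell and 1.52% rose that far. The 39 tested members lay above the median of every array, so none passed the level filter through 1 group alone. Pcx, pyruvate carboxylase, which refills oxaloacetate, was not tested: its probe set lay at 2.66, 2.60 and 2.32 in GFP_plus and at 2.42, 2.59 and 2.70 in GFP_min, below the array medians. Its 4 probe sets among the array's control sequences, left out of the tests, had means of 2.61 to 2.98 in GFP_plus and 2.46 to 2.80 in GFP_min.

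The median difference of the TCA members was -0.42 and that of the fatty acid oxidation members -0.31, where that of all genes was 0.0024. On the deposited scale both medians were negative, and they turned to 0.41 and 0.52 when arrays were centred on their ribosomal protein genes, which moved the median of all genes to 0.83. Centring on the median of tested probe sets moved the median of all genes to 0.20, and centring on the bacterial poly-A control RNAs to -0.40. Under all 3 centrings the members' medians lay 0.43 and 0.31 below that of all genes, which a constant shift leaves as it is, and 0.45 and 0.30 below it after quantile normalization. Of the 27 called members, 15 kept direction and call under quantile, median and poly-A scaling. With ribosomal centring also, 7 did, those with the largest falls: Idh2, Idh3b, Suclg2 and Fh1 of the cycle and Hadh, Echs1 and Decr1 of fatty acid oxidation. Each centring adds 1 constant to every difference: 0.20 for median, 0.83 for ribosomal and -0.41 for poly-A centring. Poly-A centring can thus only deepen a fall. A call kept under the centrings follows largely from the size of the difference and is no separate support for it.

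**Figure D1:**
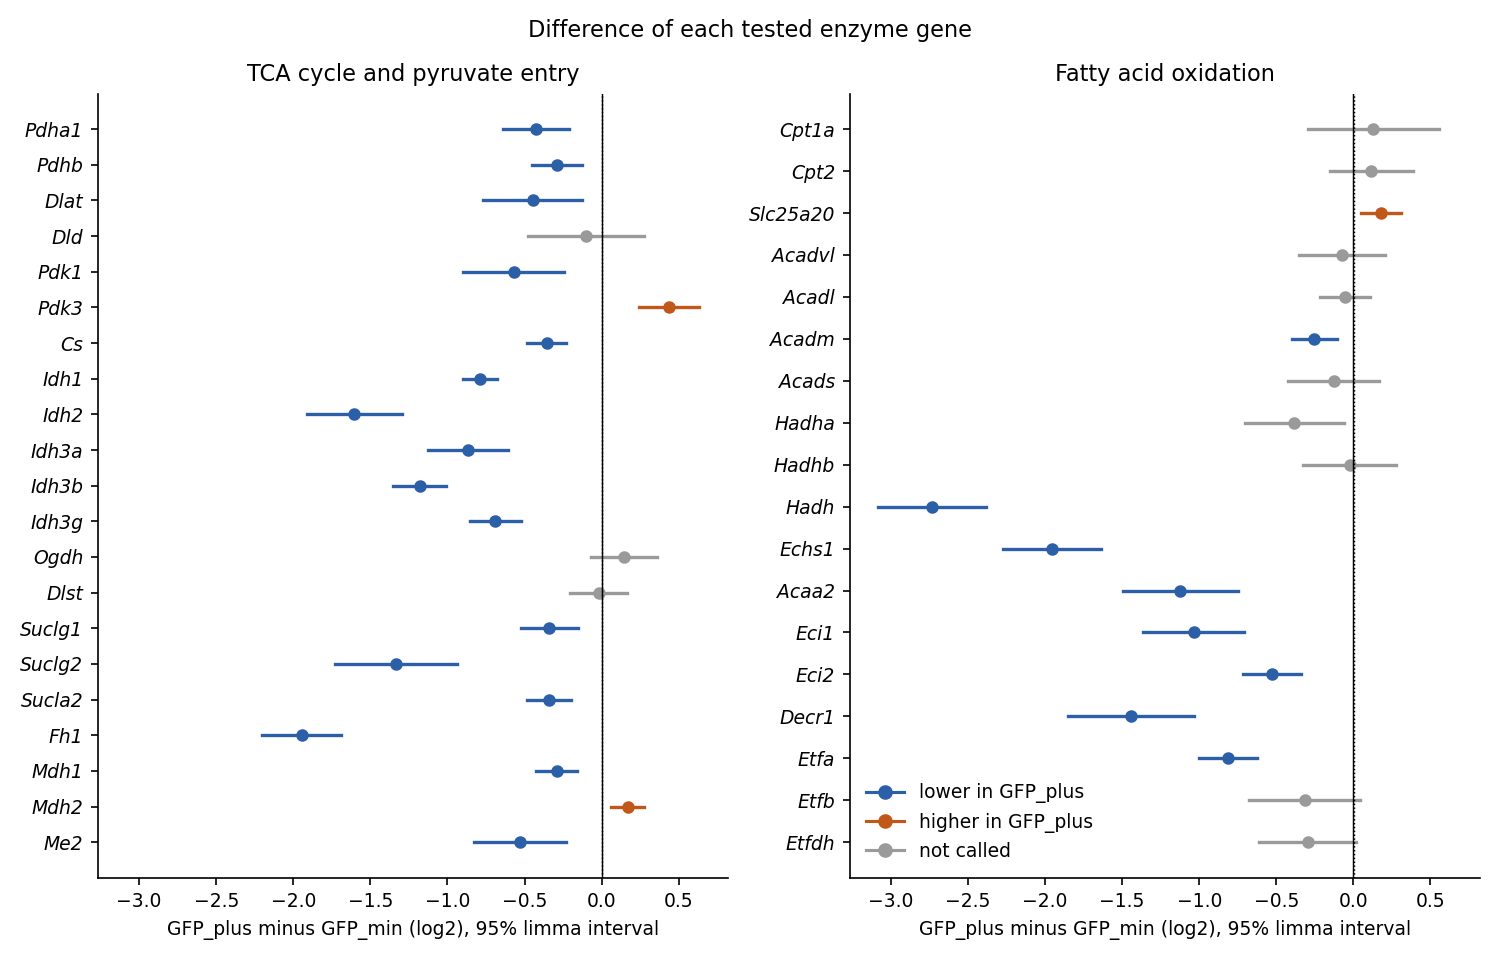
Difference of each tested member, GFP_plus minus GFP_min in log2 (x axis), with its 95% limma interval as a line, in the order of the pathway from top to bottom; blue marks genes called lower, orange called higher, grey not called, and the dotted line the median of all genes. The cycle's genes from Cs to Fh1 lie left of 0 except Ogdh, with Dlst near 0. Among the fatty acid oxidation genes Hadh, Echs1, Decr1, Acaa2 and Eci1 lie beyond -1. Hadha and Hadhb of the later steps are not called, nor are Etfb and Etfdh of electron transfer.

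**Figure D2:**
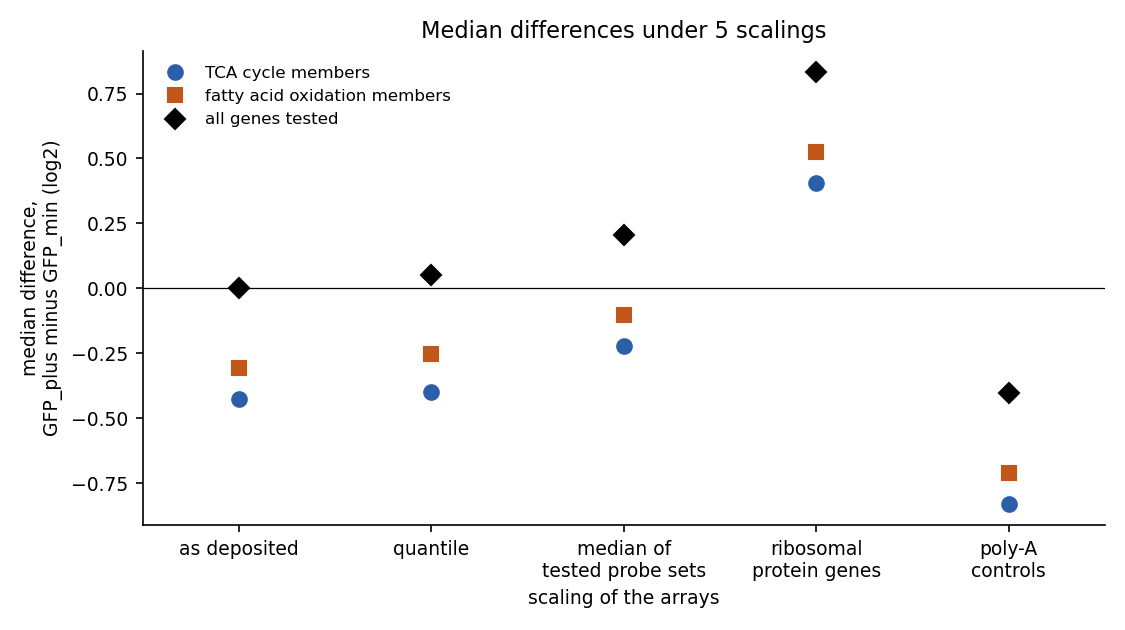
Median difference (GFP_plus minus GFP_min, log2) of the TCA members, the fatty acid oxidation members and all genes tested, on the deposited values and under 4 other scalings of the arrays. The members' medians lie below that of all genes in each, while their sign turns with ribosomal centring.

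The 3 catalytic genes of pyruvate dehydrogenase were lower on the deposited scale, and ribosomal centring turned them (0.41 for Pdha1, 0.54 for Pdhb and 0.38 for Dlat). Pdha1 and Pdhb, the E1 subunits of pyruvate dehydrogenase, differed by -0.42 (SE 0.10, limma adjusted p = 0.0052) and -0.29 (SE 0.07, 0.00857). Dlat, the E2 acetyltransferase core, was 6.05, 6.34 and 6.15 in GFP_plus and 6.65, 6.43 and 6.80 in GFP_min, a difference of -0.45 (adjusted p = 0.0291) that lost its call after quantile normalization (-0.26, 0.171) and without GFP_plus replicate a (-0.38, 0.105), GFP_plus replicate c (-0.43, 0.0667), GFP_min replicate a (-0.44, 0.0758) or GFP_min replicate c (-0.36, 0.111). All tested probe sets of these 3 genes were called lower. Dld, the dihydrolipoamide dehydrogenase shared with the 2-oxoglutarate complex, differed by -0.10 with an interval of -0.47 to 0.27. The calls of Pdha1, Pdhb and Dlat were lost with median centring (-0.22, -0.09 and -0.25).

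The kinases that phosphorylate and inactivate pyruvate dehydrogenase differed in direction on the deposited scale. Pdk3 was 9.13, 8.93 and 8.96 in GFP_plus and 8.53, 8.62 and 8.57 in GFP_min, a rise of 0.44 (SE 0.09, limma adjusted p = 0.00271) with no overlap between the groups. With poly-A centring this rise was 0.03 (adjusted p = 0.861). Pdk1 was 3.90, 3.64 and 3.95 in GFP_plus and 4.21, 4.51 and 4.49 in GFP_min, near the array medians, a difference of -0.57 (adjusted p = 0.0099). This call was lost with median centring (-0.37, 0.0558) and with the mean of probe sets (-0.14, 0.179), and the difference turned to 0.26 with ribosomal centring. The other tested probe sets of Pdk1 differed by 0.16 and -0.14 and were not called. The difference of Pdk1 minus that of Pdk3 was -1.01 (two-sided exact permutation p = 0.1, 0.125 adjusted over 5 gene pairs, where the smallest possible is 0.1 before adjustment).

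All 6 genes from citrate synthase to isocitrate dehydrogenase were lower in GFP_plus on the deposited scale. Ribosomal centring turned Cs, Idh1 and Idh3g (0.47, 0.04 and 0.14) and left Idh3a without a call (-0.04, limma adjusted p = 0.796). Idh1, the cytosolic NADP-dependent isocitrate dehydrogenase, was 11.00, 10.99 and 10.99 in GFP_plus and 11.75, 11.79 and 11.80 in GFP_min, a difference of -0.79 (SE 0.05, adjusted p = 1.12e-06). Idh2, its mitochondrial counterpart, was 5.66, 5.58 and 5.45 in GFP_plus and 7.31, 7.21 and 6.97 in GFP_min, a difference of -1.60 (SE 0.14, 1.17e-05). Neither gene's groups overlapped, and the difference of Idh2 minus that of Idh1 was -0.81 (exact permutation p = 0.1, 0.125 adjusted). The NAD-dependent enzyme that works in the cycle itself is built from the catalytic subunit Idh3a and the subunits Idh3b and Idh3g. Idh3a was 7.41, 7.20 and 7.05 in GFP_plus and 8.05, 8.13 and 8.09 in GFP_min (difference -0.87, SE 0.12, 0.000216). Idh3b was 9.14, 9.01 and 9.12 in GFP_plus and 10.29, 10.33 and 10.19 in GFP_min (difference -1.18, SE 0.08, 1.59e-06), and its other bright probe set was also lower. Idh3g fell by 0.69, from both its tested probe sets. Cs, citrate synthase, the entry of acetyl-CoA, fell by 0.36 (SE 0.06, 0.000617) in all 3 of its probe sets, and that call was lost with median centring (-0.15, 0.0581). The fainter probe set of Idh2 differed by 0.03, that of Idh1 by -0.21 and that of Idh3a by -0.05, without a call. Aco1, the iron regulatory protein of the cytosol, was 5.30, 6.09 and 4.89 in GFP_plus and 6.72, 6.02 and 6.92 in GFP_min, a difference of -1.12 (adjusted p = 0.0143) with overlapping arrays, whose call was lost without GFP_plus replicate a (-1.06, 0.0514) or GFP_min replicate c (-0.94, 0.0539).

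The 2-oxoglutarate dehydrogenase complex showed no called change in its brightest probe sets on the deposited scale. Ogdh, its E1 subunit, was 8.56, 8.46 and 8.49 in GFP_plus and 8.46, 8.40 and 8.22 in GFP_min (difference 0.15, interval -0.07 to 0.36), although a fainter probe set was called lower (-0.46, adjusted p = 0.0261). Dlst, the E2 succinyltransferase, differed by -0.02 (interval -0.20 to 0.17), and none of its 4 tested probe sets was called. With poly-A centring Dlst passed as lower (-0.42, 0.00494), and with median centring Ogdh passed as higher (0.35, 0.01). With ribosomal centring both passed as higher (0.98 for Ogdh and 0.81 for Dlst).

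Succinyl-CoA ligase pairs the alpha subunit Suclg1 with the beta subunit Suclg2, which makes GTP, or Sucla2, which makes ATP. Suclg2 was 4.70, 4.82 and 4.23 in GFP_plus and 6.06, 5.85 and 5.83 in GFP_min, 2.52-fold lower (difference -1.33, SE 0.18, adjusted p = 0.000202). Sucla2 was 10.58, 10.48 and 10.50 in GFP_plus and 10.82, 10.95 and 10.82 in GFP_min (difference -0.34, SE 0.06, 0.00177). The difference of Suclg2 minus that of Sucla2 was -0.99 (exact permutation p = 0.1, 0.125 adjusted). Suclg1 fell by 0.34 (0.00783). The calls of Sucla2 and Suclg1 were lost with median centring (-0.14 for each) and that of Suclg2 was kept under all 4 scalings. Succinate dehydrogenase, the next enzyme of the cycle, was lower in the iron-sulfur subunit Sdhb (difference -0.49, 0.000262). The membrane anchor Sdhc fell by 0.43 (0.0419), a call lost without any 1 of 5 arrays: GFP_plus b (-0.26, 0.114), GFP_plus c (-0.49, 0.0507), GFP_min a (-0.36, 0.135), GFP_min b (-0.47, 0.0567) and GFP_min c (-0.47, 0.067). The flavoprotein Sdha differed by -0.06 and the anchor Sdhd by -0.17, neither called.

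Fumarase and the mitochondrial malate dehydrogenase, the last enzymes of the cycle, differed in opposite directions on the deposited scale. Fh1, fumarase, was 7.72, 7.68 and 7.34 in GFP_plus and 9.54, 9.60 and 9.44 in GFP_min, a difference of -1.95 (SE 0.12, interval -2.21 to -1.69, adjusted p = 9.31e-07). It was the largest fall among the TCA members and stood at place 327 among the 2986 genes called lower. Mdh2, the mitochondrial malate dehydrogenase, was 12.92, 12.94 and 12.82 in GFP_plus and 12.70, 12.68 and 12.80 in GFP_min. This was a rise of 0.17 (SE 0.05, 0.0181), a call lost without the variance trend (0.146). The other probe set of Mdh2, at 12.25 in GFP_plus and 12.14 in GFP_min, differed by 0.11 without a call (0.129). The rise of Mdh2 was 0.15 and lost its call without GFP_plus replicate a (0.0757), GFP_plus replicate b (0.0505), GFP_min replicate a (0.0636) or GFP_min replicate b (0.0562), and it turned to -0.24 with poly-A centring. Mdh1, the cytosolic form, fell by 0.29 (0.00269) on the deposited scale, a call lost with median centring (-0.09, 0.203) and with the mean of probe sets (-0.21, 0.0513) and turned by ribosomal centring (0.54). Its plain second probe set differed by -0.66 (0.00112), while a further one, at 9.12 in GFP_plus and 9.03 in GFP_min, differed by 0.09. Me2, the mitochondrial malic enzyme, fell by 0.53 (0.00919), which ribosomal centring turned to 0.30, and all 4 of its probe sets were lower, with differences of -1.05 to -0.53.

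The promoters of Fh1 and Mdh2 are shown because these genes act on consecutive steps. Their brightest probe sets differed in opposite directions on the deposited scale. The windows, from RefSeq on the build GRCm38.p6, run from 250 bases before to 50 after the annotated start, at chr1:175625586-175625885 on the minus strand for Fh1 and chr5:135778399-135778698 on the plus strand for Mdh2. Capitals mark the GC box GGGCGG and the box CCAAT on either strand, which did not overlap each other.
Fh1: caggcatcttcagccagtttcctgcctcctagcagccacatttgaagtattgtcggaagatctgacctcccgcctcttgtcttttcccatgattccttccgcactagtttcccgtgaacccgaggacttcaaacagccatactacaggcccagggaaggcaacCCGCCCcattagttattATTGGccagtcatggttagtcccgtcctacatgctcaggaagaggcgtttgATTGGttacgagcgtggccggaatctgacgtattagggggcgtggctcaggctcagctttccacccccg
Mdh2: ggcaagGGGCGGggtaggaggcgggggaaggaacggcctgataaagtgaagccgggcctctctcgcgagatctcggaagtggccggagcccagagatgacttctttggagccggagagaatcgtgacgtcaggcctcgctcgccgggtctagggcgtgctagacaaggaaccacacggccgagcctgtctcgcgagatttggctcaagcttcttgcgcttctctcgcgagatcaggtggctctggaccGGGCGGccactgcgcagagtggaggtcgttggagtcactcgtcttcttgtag
Fh1 held 1 GC box and 2 CCAAT boxes, and Mdh2 held 2 GC boxes and no CCAAT box. Of the 40 members 36 had a promoter window in the RefSeq promoter table, and 28 of these had a window with GGGCGG and 18 one with CCAAT. In windows, the shares were 72.7% and 54.5% of 44 member windows, against 35.7% and 37.4% of all 32851 windows in the table. The member windows were also richer in G and C (median 61.2%, against 52.7% in all windows). A match of these letters is a description and does not show a bound factor.

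**Figure D3:**
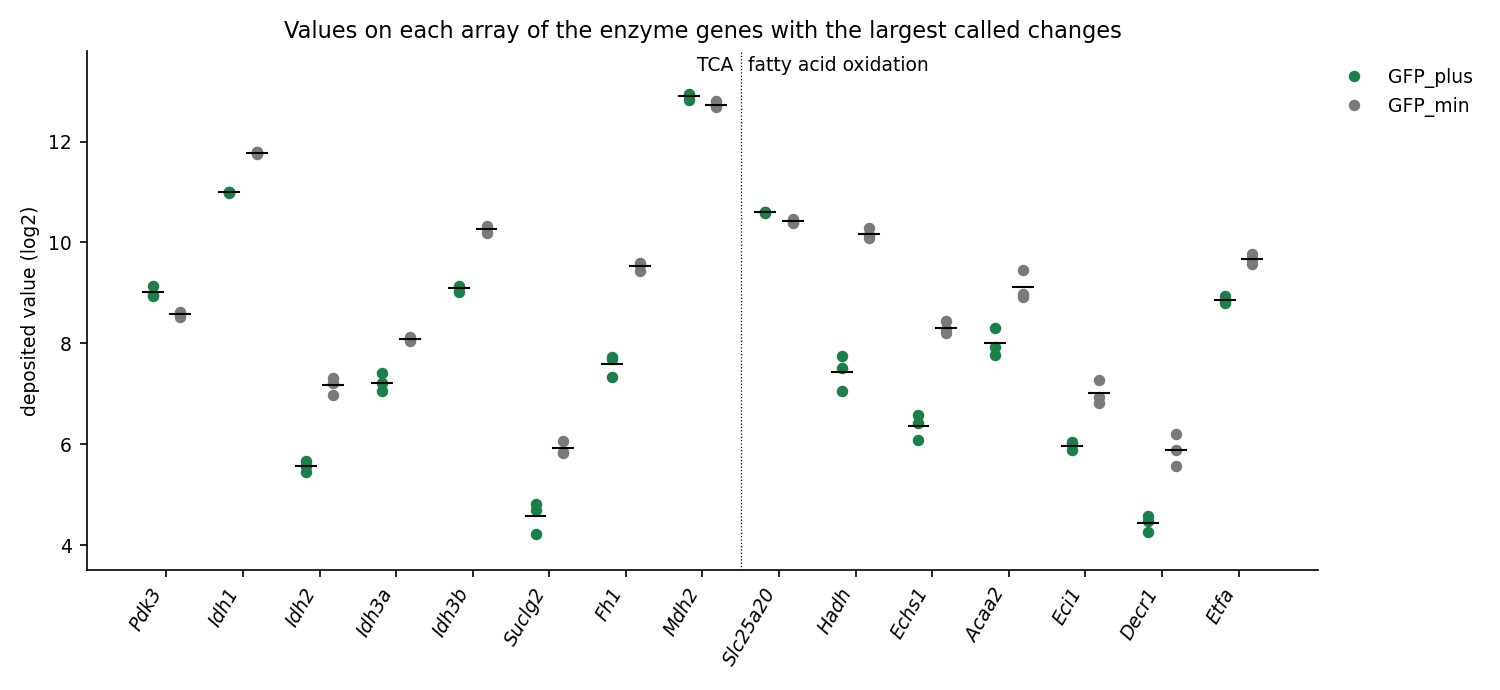
Deposited log2 value on each array (points) and group mean (bars) of the members with the largest called changes, GFP_plus in green at the left and GFP_min in grey at the right of each gene. The 3 GFP_plus points lie below the 3 GFP_min points in all but Pdk3, Mdh2 and Slc25a20, where they lie above.

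In fatty acid oxidation, 1 of 3 genes of transport into the mitochondrion was higher and 1 of 4 acyl-CoA dehydrogenases lower on the deposited scale, while poly-A centring turned the transport gene and ribosomal centring the dehydrogenase (0.58). Cpt1a, the carnitine palmitoyltransferase of the outer membrane, was 9.37, 9.68 and 8.998 in GFP_plus and 9.37, 8.84 and 9.46 in GFP_min (difference 0.13, interval -0.30 to 0.55). Cpt2, the inner membrane transferase, differed by 0.12 (interval -0.15 to 0.38). Slc25a20, the carnitine-acylcarnitine carrier, was 10.60, 10.61 and 10.59 in GFP_plus and 10.39, 10.46 and 10.41 in GFP_min, a rise of 0.18 (SE 0.06, limma adjusted p = 0.0277). That call was lost without GFP_plus replicate a (0.084), b (0.0567) or c (0.0523) and without GFP_min replicate a (0.0909) or c (0.0858). The differences were 0.17 to 0.20 over the 6 arrays left out, and with poly-A centring the difference was -0.22. The other probe set of Slc25a20 differed by 0.06 without a call (0.746). Among the acyl-CoA dehydrogenases, which open each round for chains of falling length, Acadm (medium chains) was 10.19, 10.19 and 10.23 in GFP_plus and 10.37, 10.50 and 10.49 in GFP_min, a difference of -0.25 (0.00984). Acadvl (very long chains, -0.08), Acadl (long chains, -0.05) and Acads (short chains, -0.13) were not called, with intervals of -0.35 to 0.20, -0.22 to 0.11 and -0.42 to 0.17. The call of Acadm was lost with median centring (-0.05, 0.551). With poly-A centring Acadvl, Acadl and Acads passed as lower (-0.48, -0.46 and -0.53), and with ribosomal centring as higher (0.75, 0.77 and 0.70).

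Of the 5 genes of hydration, the later dehydrogenation and thiolysis 3 were called lower, and Hadh and Echs1 among them had the largest falls of all members. Hadh was 7.75, 7.05 and 7.51 in GFP_plus and 10.15, 10.28 and 10.08 in GFP_min, a difference of -2.73 (SE 0.16, interval -3.08 to -2.38, adjusted p = 7.19e-07). The plain second probe set of Hadh fell by 2.67 (2.39e-07), and Hadh stood at place 199 among the genes called lower. Echs1 was 6.41, 6.57 and 6.08 in GFP_plus and 8.21, 8.44 and 8.28 in GFP_min, a difference of -1.96 (SE 0.14, 3.63e-06). Acaa2, the mitochondrial thiolase, was 7.92, 7.77 and 8.30 in GFP_plus and 8.99, 9.45 and 8.92 in GFP_min, a difference of -1.12 (SE 0.17, 0.000432), and its other probe sets differed by -0.90 and -1.63. In each of these genes the groups lay apart. Acaa2 lost its call with ribosomal centring (-0.29, limma adjusted p = 0.103). Hadha and Hadhb, the alpha and beta subunits of the membrane-bound trifunctional protein that carries out the same steps on long chains, were not called. Hadha was 4.91, 4.67 and 4.93 in GFP_plus and 5.18, 5.37 and 5.12 in GFP_min (difference -0.38, interval -0.71 to -0.06, adjusted p = 0.0537). Hadhb was 10.42, 10.78 and 10.25 in GFP_plus and 10.62, 10.28 and 10.62 in GFP_min (difference -0.02, interval -0.32 to 0.28). The difference of Hadha minus that of Hadhb was -0.36 (exact permutation p = 0.4, 0.4 adjusted). Hadha passed as lower without the variance trend (0.0273). It has 1 probe set, so averaging probe sets left its difference at -0.38. The limma adjusted p of 0.0196 in that setting came from a fit over gene means and rests on no further probe set of Hadha. Both subunits passed as lower with poly-A centring (-0.79 and -0.43) and as higher with ribosomal centring (0.45 and 0.81).

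Promoters of Hadh and of Hadhb, the beta subunit of the trifunctional protein, are shown for contrast. Hadh was called lower and the brightest probe set of Hadhb was not. The RefSeq windows on GRCm38.p6 lie at chr3:131272052-131272351 on the minus strand for Hadh and at chr5:30155003-30155302 on the plus strand for Hadhb, with the same boxes in capitals.
Hadh: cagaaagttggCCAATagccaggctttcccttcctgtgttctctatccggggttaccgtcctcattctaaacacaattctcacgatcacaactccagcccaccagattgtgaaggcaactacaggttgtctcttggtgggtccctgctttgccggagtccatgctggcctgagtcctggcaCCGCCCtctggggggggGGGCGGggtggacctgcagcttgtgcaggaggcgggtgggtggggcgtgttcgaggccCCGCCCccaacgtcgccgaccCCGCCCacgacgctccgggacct
Hadhb: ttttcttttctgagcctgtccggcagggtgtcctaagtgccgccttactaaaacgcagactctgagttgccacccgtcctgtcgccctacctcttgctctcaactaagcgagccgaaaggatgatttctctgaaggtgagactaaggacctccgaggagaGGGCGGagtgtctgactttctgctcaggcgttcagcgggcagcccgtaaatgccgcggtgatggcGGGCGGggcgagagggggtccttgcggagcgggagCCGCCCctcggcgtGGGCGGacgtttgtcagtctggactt
Each window held 4 GC boxes, and Hadh held 1 CCAAT box and Hadhb none. Hadha starts 273 bases from Hadhb on the opposite strand, and 228 bases of the printed Hadhb window belong to the window of Hadha as well.

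The auxiliary enzymes that make unsaturated chains fit for oxidation were all 3 lower on the deposited scale, where ribosomal centring turned Eci2 (0.30) and left Eci1 without a call (-0.21). Decr1, the mitochondrial dienoyl-CoA reductase, was 4.58, 4.48 and 4.26 in GFP_plus and 5.56, 6.19 and 5.89 in GFP_min, a difference of -1.44 (SE 0.18, adjusted p = 0.000148). Eci1, an enoyl-CoA isomerase, was 6.00, 6.05 and 5.87 in GFP_plus and 6.94, 7.27 and 6.81 in GFP_min, a difference of -1.04 (SE 0.15, 0.00031). Eci2, the isomerase also found in peroxisomes, fell by 0.53 (0.000712). The difference of Eci1 minus that of Eci2 was -0.51 (exact permutation p = 0.1, 0.125 adjusted). The electron transfer flavoprotein carries electrons from the acyl-CoA dehydrogenases to ubiquinone. Its alpha subunit Etfa was 8.94, 8.80 and 8.83 in GFP_plus and 9.57, 9.67 and 9.77 in GFP_min, a difference of -0.81 (SE 0.08, 4.13e-05) that was 0.02 with ribosomal centring (0.871). Its beta subunit Etfb was 9.59, 9.21 and 9.58 in GFP_plus and 9.59, 10.16 and 9.58 in GFP_min (-0.32, interval -0.68 to 0.04), with GFP_min replicate b as the high and GFP_plus replicate b as the low array. The oxidoreductase Etfdh, which hands the electrons on, differed by -0.30 (interval -0.61 to 0.02). Etfb and Etfdh were not called on the deposited scale. They passed as lower with poly-A centring (-0.72 and -0.70) and as higher with ribosomal centring (0.51 and 0.53).

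Probe sets of 1 gene did not always share a call. Of 21 members with more than 1 tested probe set, 10 had probe sets with and without a call, and none had calls in opposite directions. In Cpt1a the brightest probe set and another, both with names ending in _x_at, differed by 0.13 and 0.06, while the plain one was 8.58 in GFP_plus and 9.32 in GFP_min (-0.74, limma adjusted p = 0.000436). In Hadhb the brightest, also _x_at, differed by -0.02, while the plain one was 9.13 in GFP_plus and 9.68 in GFP_min (-0.55, 0.000537). By the maker's naming, _x_at probe sets hold probes that may match other sequences, _s_at ones match several transcripts and _a_at ones transcripts of the same gene. An alternative chosen after the data were seen took the brightest probe set that ends in neither _x_at nor _s_at. By it 10 fatty acid oxidation members were lower and 1 higher, and 15 TCA members lower and 2 higher. Of all genes 27.7% were lower and 20.7% higher by that choice. With that choice the call of Cpt1a was lower, which the brightest probe set did not give.

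**Figure D4:**
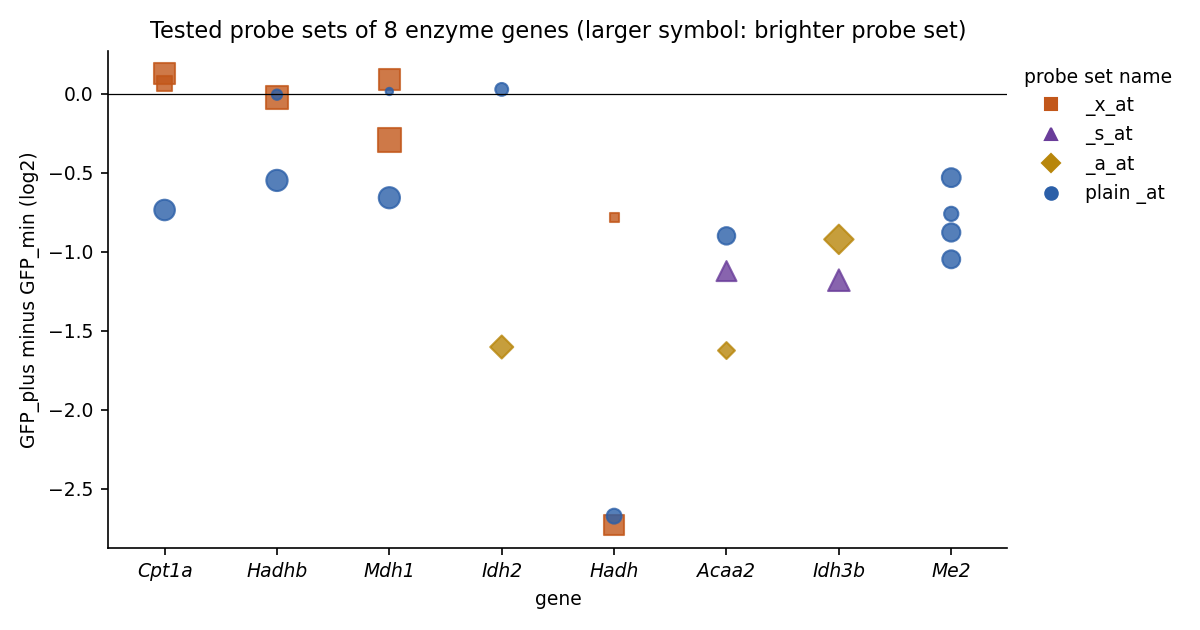
Difference, GFP_plus minus GFP_min in log2, of each tested probe set (y axis) of 8 members (x axis), with the symbol giving the ending of the probe set's name and its size the mean level. In Cpt1a and Hadhb the large orange _x_at symbols lie near 0 and the bright plain probe set lies at -0.74 and -0.55, while both bright probe sets of Hadh lie at -2.73 and -2.67.

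Other genes of the pathways were taken from lists that leave out the members. Of 21 tested genes of the cycle, pyruvate supply and mitochondrial carriers, 7 were lower and 1 higher (median -0.17, which turned to 0.03 with median and 0.66 with ribosomal centring). These are shares of 33.3% lower and 4.76% higher, against 27.6% and 21.0% of all genes, so the share lower was near that of all genes. Of the 7 lower genes 2, Slc25a13 and Pdp2 (Pdp2 named after its values were seen), passed the level filter through GFP_min alone, so their calls give the list no support. Besides Aco1 and the Sdh genes given above, Slc25a13, the citrin carrier that exchanges aspartate for glutamate, was at least 2.24-fold lower, with the GFP_plus arrays under their medians (2.53, 2.58 and 2.33 in GFP_plus, against 4.26, 4.26 and 3.56 in GFP_min, adjusted p = 0.000109). Pck2, the mitochondrial phosphoenolpyruvate carboxykinase, fell by 0.96 (0.000501), and Glud1, glutamate dehydrogenase, which feeds 2-oxoglutarate, fell by 0.87 (4.23e-06). Got1, the cytosolic aspartate aminotransferase, was the 1 that rose, by 0.56 (0.00959), and this rise was 0.15 without a call under poly-A centring.

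Of 30 tested genes of fatty acid activation, other acyl-CoA oxidation and their regulators, 10 were lower and 4 higher (median -0.08, which turned to 0.13 with median and 0.75 with ribosomal centring). These are shares of 33.3% lower and 13.3% higher, against 27.6% and 21.0% of all genes, so the share lower was again near that of all genes. Ppargc1b passed the level filter through GFP_min alone, so its call gives the list no support. Acat1, the mitochondrial acetoacetyl-CoA thiolase, was 8.32, 8.67 and 8.41 in GFP_plus and 9.67, 9.49 and 9.61 in GFP_min, a difference of -1.13 (2.01e-05). Ppargc1b, a coactivator of mitochondrial genes, lay under the medians of the GFP_plus arrays and was at least 1.95-fold lower (2.70, 2.75 and 2.87 in GFP_plus, against 4.16, 3.68 and 3.65 in GFP_min, 0.000291). Nudt19, a coenzyme A diphosphatase, fell by 0.87 (0.000643), and Ivd, isovaleryl-CoA dehydrogenase of leucine breakdown, fell by 0.83 (0.000581). The 4 that rose were Acad12 (0.66), Nudt7, a peroxisomal coenzyme A diphosphatase (0.37), Esrra, a nuclear receptor that drives mitochondrial genes (0.35), and Acadsb, the short and branched chain dehydrogenase (0.34). With poly-A centring Acad12 lost its call, and Nudt7, Esrra and Acadsb turned to -0.03, -0.05 and -0.07. The number that rose was 1 without GFP_plus replicate a. Esrra lost its call without GFP_plus a (0.33), GFP_plus c (0.33), GFP_min a (0.29) or GFP_min b (0.32), Acadsb without GFP_plus a (0.31), GFP_plus b (0.33) or GFP_min a (0.30), and Acad12 without GFP_plus a (0.55) or GFP_min c (0.55).

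Beside the members, 84 tested genes of the respiratory chain had a median of -0.35, with 57 lower (67.9%) and 1 higher (1.19%). The list held 8 assembly factors, counted before testing. Ndufaf5 and Ndufaf6, called lower, had GFP_plus means of 2.78 and 2.74, under the medians of the GFP_plus arrays. Their calls are not taken as support for the list. The 15 tested glycolysis genes had a median of -0.01, with 1 lower (6.67%) and 5 higher (33.3%). The rises were Hk1, Hk3, Aldoa, Pkm and Ldha. Among all genes 27.6% were lower and 21.0% higher. With ribosomal centring the medians of the respiratory chain and glycolysis lists were 0.48 and 0.82, and with poly-A centring -0.76 and -0.41. Whether the members' shift differs from that of these lists was not tested.

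**Figure D5:**
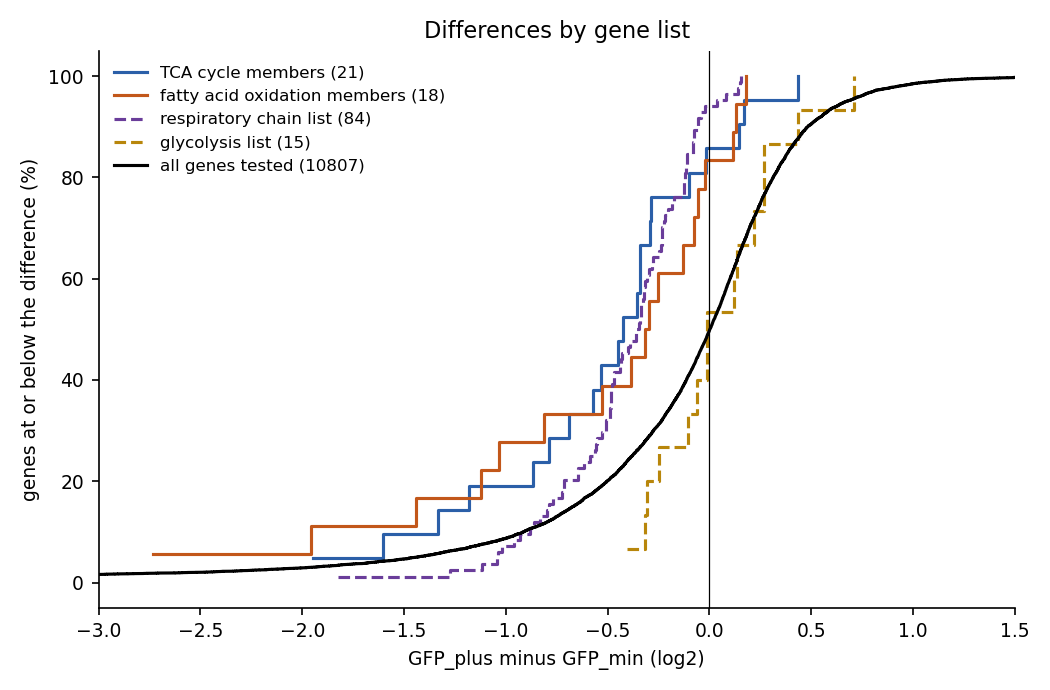
Cumulative share of genes (y axis, %) at or below each difference, GFP_plus minus GFP_min in log2 (x axis, shown from -3 to 1.5), for the TCA members, the fatty acid oxidation members, the respiratory chain and glycolysis lists and all genes tested, with the number tested in brackets. At their medians (-0.42, -0.31 and -0.35) the curves of both member lists and of the respiratory chain lie left of that of all genes, and of these 3 lists the fatty acid oxidation members reach farthest left, to -2.73.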

How the data were processed

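Sorted cells' total RNA was biotin-labelled with Affymetrix's 3' IVT chemistry, per the labels' protocols. A single table deposited by the authors holds log2 values for 45101 probe sets and 6 arrays; GCRMA is the tool named in the submitters' processing notes, with version and settings not given in the sources used here. The log2 scale was read from the values. GCRMA adjusts for probe sequence and background. Its effect on the differences of faint genes was not tested, and these are to be read with caution.

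Groups came from the sample titles. Platform annotation gave 1 symbol to 34958 probe sets, several to 932 and, controls aside, none to 9160. All 40 members had the same symbol in RefSeq (GRCm38.p6). Leaving out 64 control probe sets, 22956 that exceeded their array's median on at least 3 arrays were tested for GFP_plus minus GFP_min with limma 3.58.1 in R 4.3.3 (lmFit, eBayes with trend), with Benjamini-Hochberg adjustment over all of them. Adjusted p-values in the text are from this fit unless a permutation test is named, and intervals are limma's at 95%. A gene stood for its brightest probe set. The fit was tested on simulated data of 10807 genes with normally distributed noise, where 100 genes changed by 0.5 log2 and 100 by 1 log2. It recovered 52% of changes of 0.5 log2 and 86% of changes of 1 log2, and called 9 unchanged genes. In the data 48.7% of genes were called. The adjusted p depends on the share of changed genes, so these rates do not carry over to the real comparison. The number of arrays limits the precision.

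The members and lists were chosen with earlier results of these data known. Per-array values are given for up to 6 called rises and 6 called falls per pathway whose groups do not overlap, and for members whose call or probe sets need them; of other genes, up to 4 in each direction per list and the Sdh genes. Alternatives changed the filter, variance model, array weights, scaling, probe set choice, size threshold, replicate block and the arrays left out. Plots used matplotlib 3.10.9 (Python 3.11.15).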

Additional observations from a re-analysis of the deposited data

How the results depend on the processing

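Scaling moved the results most. With ribosomal centring 12 TCA members were higher and 4 lower, 12 fatty acid oxidation members higher and 3 lower, 16 other cycle genes higher and 1 lower, 20 other fatty acid oxidation genes higher and 1 lower, and 8636 of all genes higher and 749 lower. With poly-A centring 0 TCA members were higher and 19 lower, 0 fatty acid oxidation members higher and 15 lower, 0 other cycle genes higher and 16 lower, 0 other fatty acid oxidation genes higher and 18 lower, and 420 of all genes higher and 6026 lower. With median centring 8 TCA members were lower, 2 fatty acid oxidation members higher, 6 other cycle genes and 13 other fatty acid oxidation genes higher. Of all genes 4471 (41.4%) were then higher and 19.3% lower. With quantile normalization 7 other fatty acid oxidation genes were higher, where 25.1% of all genes were. Higher genes made up 43.2% of called genes as deposited, 50.3% after quantile normalization, 68.2% after median, 92% after ribosomal and 6.52% after poly-A centring. Ribosomal centring turned Pdha1 (0.41), Pdhb (0.54), Dlat (0.38), Dld (0.73), Pdk1 (0.26), Cs (0.47), Idh1 (0.040), Idh3g (0.14), Dlst (0.81), Suclg1 (0.49), Sucla2 (0.49), Mdh1 (0.54), Me2 (0.30), Acadvl (0.75), Acadl (0.77), Acadm (0.58), Acads (0.70), Hadha (0.45), Hadhb (0.81), Eci2 (0.30), Etfa (0.019), Etfb (0.51), Etfdh (0.53), Sdha (0.77), Sdhb (0.34), Sdhc (0.40), Sdhd (0.66) and Ivd (0.0038). Median centring turned Dld (0.10), Dlst (0.18), Acadvl (0.13), Acadl (0.15), Acads (0.074), Hadhb (0.18), Sdha (0.14) and Sdhd (0.029), poly-A centring Ogdh (-0.26), Mdh2 (-0.24), Cpt1a (-0.28), Cpt2 (-0.29), Slc25a20 (-0.22), Acadsb (-0.070), Esrra (-0.051) and Nudt7 (-0.033) and quantile normalization Acads (0.048). The shift a centring adds is the same for every gene.

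The mean of a gene's probe sets turned Ogdh (-0.16), Dlst (0.034), Cpt1a (-0.18) and Acadl (0.076). It left 0 fatty acid oxidation members higher, where 22.4% of all genes were. The faintest tested probe set turned Idh2 (0.027), Ogdh (-0.46), Mdh1 (0.014), Sdha (0.17) and Sdhd (0.084). It left 1 TCA and 0 fatty acid oxidation members higher, where 17.4% of all genes were. Array weights turned Dlst (0.024), and avoiding _x_at and _s_at probe sets Cpt1a (-0.74). Without the variance trend 1 TCA and 0 fatty acid oxidation members were higher, where 19.1% of all genes were. Without the filter 0 fatty acid oxidation members were higher, where 12.1% of all genes were. At a size of 1 log2, 0 and 4 TCA members, 0 and 5 fatty acid oxidation members, 0 and 2 genes of each other list, and 164 and 945 of all genes were higher and lower.

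The replicate letters did not pair the arrays: deviations of same-lettered arrays correlated at -0.18, -0.30 and -0.22, and 0 of 6 arrays correlated best with its own letter. With the replicate block 15 TCA members were lower and 1 higher, 7 fatty acid oxidation members lower and 0 higher, and 2 other fatty acid oxidation genes higher. Of all genes 24.1% were then lower and 16.1% higher. Of the 27 called members 23 kept their call with the block. Dlat (limma adjusted p = 0.0759), Mdh2 (0.0794), Slc25a20 (0.118) and Acadm (0.0508) did not, nor did Acadsb (0.0897) and Esrra (0.089) of the other genes. Leaving out 1 array at a time gave 1 to 2 TCA and 0 to 1 fatty acid oxidation members higher and 1 to 5 other fatty acid oxidation genes higher. Of all genes 16.2% to 19.3% were then higher. The ranges for genes whose sign turned were Dld -0.27 to 0.099, Dlst -0.061 to 0.038, Cpt1a -0.063 to 0.30, Acadvl -0.16 to 0.037, Hadhb -0.17 to 0.092 and Sdha -0.11 to 0.026. Of 27 called members, 24 kept their call without any 1 array; Dlat, Mdh2 and Slc25a20 did not. The cause of these changes was not tested. All 39 tested members lay above the array medians, but Pdk1 and Acads lay near them. Suclg2, Decr1 and Hadha were little brighter in GFP_plus, with means of 4.58, 4.44 and 4.84 against 4.14 for Acads.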

Other observations

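Oxidation of very long and branched acyl chains takes place in peroxisomes, and its genes, named after their values were seen, did not share one direction. Hsd17b4, the bifunctional enzyme of the peroxisome, fell by 0.56 (limma adjusted p = 0.0074). The oxidase Acox3 (0.31, adjusted p = 0.052), the thiolase Acaa1a (0.23, 0.181) and Crot, which makes carnitine esters of shortened chains (0.33, 0.079), were not called. Nudt19, the coenzyme A diphosphatase, fell by 0.87 and the related Nudt7 rose by 0.37.

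Enzymes that break down branched chain amino acids share the flavoprotein route with fatty acid oxidation. Ivd fell by 0.83, Acad8, isobutyryl-CoA dehydrogenase of valine breakdown, differed by -0.57 (limma adjusted p = 0.0218) and Hsd17b10, of isoleucine breakdown, differed by -0.72 (0.000279), while Acadsb, also of isoleucine breakdown, rose by 0.34. Acad9, an assembly factor of complex I with dehydrogenase activity, fell by 0.75 (0.0057).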
